A study of Caenorhabditis elegans with 36 samples.

Results

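Small heat shock proteins are chaperones built around an alpha-crystallin domain. They bind unfolding proteins without using ATP and hold them until HSP70 and its partners refold them. In Caenorhabditis elegans the hsp-16 genes are the classic heat-inducible members, switched on by the heat shock factor HSF-1. Several members are also known targets of DAF-16, the FoxO transcription factor that the insulin/IGF receptor DAF-2 restrains, and have been tied to the long life of daf-2 mutants. The genes described here are 9 of this family: hsp-16.1, hsp-16.2, hsp-16.41, hsp-16.48, hsp-12.3, hsp-12.6, hsp-17, hsp-43 and sip-1. They were found by annotated gene symbol on the Affymetrix C. elegans Genome Array, where 10 of 22548 tested probe sets carry them, among probe sets for 18217 gene symbols in all. Of these probe sets 8 carry the symbol of 1 gene and 2 are shared between near-identical paralogues, 1 by hsp-16.1 and hsp-16.11 and 1 by hsp-16.48 and hsp-16.49, so that the paralogues cannot be told apart. The gene sip-1 has 2 probe sets.

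Total RNA came from whole synchronized first-stage larvae of 4 strains: daf-2, daf-2;daf-16, daf-16 and the wild type N2. Each strain was exposed to ultraviolet light (UV), starved or left untreated, which gave 12 groups and 36 arrays, 3 in each group except 4 for starved daf-2;daf-16 and 2 for starved daf-16. The labels give every sample 4 h on food and a harvest 6 h after UV. They do not say how the starved larvae were handled, which alleles the mutants carry or what UV dose was given. The comparisons address how each strain's transcripts change with UV and with starvation, and whether these changes differ in larvae that lack the receptor's or DAF-16's normal function. Values are log2 signals as deposited, so a difference of 1 is a doubling of signal, and differences are log2 fold changes ± standard error from limma. A difference is called where its Benjamini-Hochberg adjusted p over all tested probe sets is under 0.05. Whether replicate arrays stem from separate cultures is not given in the labels. The p-values therefore measure the spread between these samples, which may be technical, and the number of arrays limits the precision.

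In the annotation of the reference assembly WBcel235, hsp-16.2 and hsp-16.41 are neighbours on chromosome V. On the same chromosome hsp-16.1, hsp-16.48, hsp-16.49 and hsp-16.11 follow each other without another coding gene between them. Of the 12-kDa class, hsp-12.3 and hsp-12.6 are neighbours on chromosome IV. The other members lie alone, hsp-17 on V, hsp-43 on X and sip-1 on III.

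Over all probe sets 3 arrays stood apart within their groups, by the median SD of an array's differences from the others of its group. They were daf-2;daf-16 untreated replicate 1 (0.358, others 0.255), daf-2;daf-16 starved replicate 4 (0.254, others 0.158) and daf-16 UV replicate 3 (0.360, others 0.325 and 0.291). They were chosen after seeing the data and are not the only spread arrays. The other UV arrays of daf-16 and N2 UV replicate 1 (0.269) exceeded that starved array by this measure. Leaving out these 3 arrays ended 1 call of a member, given below with its value, and turned no called sign, and the values of daf-2;daf-16 without them are given where they bear on its responses. A list of 12 molting genes, which oscillate with each larval stage, moved strongly with treatment. Its score, the mean log2 difference from the average array, was -2.45 to -2.19 in starved arrays of the 4 strains. UV arrays of daf-2 scored -1.49 to -0.71, against 1.27 to 1.33 without treatment, and UV arrays of N2 scored 0.48 to 0.86, against 2.03 to 2.18 without treatment. The score was 0.84 in daf-16 UV replicate 3, against 1.92 and 1.78 in the other replicates of that group. It was 1.96 in daf-2;daf-16 untreated replicate 1, against 1.22 and 1.25 in the others. Of the 12 genes 10 fell and 1 rose in N2 after UV and in starved N2. Of all tested probe sets 28.8% were called in N2 after UV, and 24.7% fell and 28.3% rose in starved N2. Of the tissue markers, unc-54 of body wall muscle had group means of 10.61 to 11.65, and the collagen gene dpy-7 of the hypodermis had 11.25 to 12.17 in untreated larvae but 4.91 to 5.49 in starved larvae, below the median of every array. The yolk gene vit-2, an adult product, stayed at 3.13 to 3.34. Starved larvae had higher mean levels of the 3 neuronal markers (10.07 to 10.30 in starved N2 against 8.88 to 8.97 in untreated N2) and lower ones of the 3 hypodermal collagens (8.14 to 8.31 against 12.73 to 12.87). After UV in N2 the 3 neuronal markers fell (7.95 to 8.23), as did the 3 collagens (10.74 to 11.32), and the 3 pharyngeal markers rose (10.70 to 10.76, against 9.96 to 10.28 untreated). In daf-2 after UV the collagen mean was 8.92 to 9.32, against 11.23 to 11.38 untreated, with dpy-7 at -4.11 ± 0.31. In starved N2 all 3 muscle and all 3 pharyngeal markers also rose, 2 intestinal markers rose and 1 fell, and 2 of 3 germ line markers fell. Means of the 3 yolk and of the 3 sperm markers lay at 4.45 to 5.06 and 3.67 to 4.10 over all arrays. The daf-16 and daf-2 probe sets gave signals in all strains, which checks nothing while the alleles are unknown: untreated daf-16 means were 8.10 in daf-2, 8.50 in daf-2;daf-16, 8.72 in daf-16 and 8.08 in N2. The log2 difference between the 3' and 5' probe sets of GAPDH, a sign of RNA quality, also moved with the groups. In untreated larvae it was 0.29 to 0.55 in daf-2, 0.61 to 0.71 in daf-2;daf-16, 0.62 to 0.86 in daf-16 and 0.73 to 0.91 in N2, and in starved N2 it was 0.33 to 0.62. The same difference for actin overlapped between the untreated strains. It was 0.63 to 0.79 in daf-2, 0.56 to 0.81 in daf-2;daf-16, 0.67 to 0.74 in daf-16 and 0.68 to 0.95 in N2. In starved N2 the actin difference was 0.55 to 0.83. What part the molting, marker and GAPDH shifts have in the results below was not tested. In RNA of whole larvae, a change in the share of cells that express a gene and a change of RNA per cell cannot be told apart.

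The gene sip-1 encodes a small heat shock protein known from oocytes and embryos, where it acts as a chaperone at acidic pH. Its level in these larvae followed the genotype: it was high in daf-2 under every treatment, rose in N2 after UV and in starvation, and stayed low in daf-2;daf-16. In daf-2 its first probe set had log2 signals of 9.98, 10.20 and 10.06 after UV, 9.50, 9.34 and 9.53 in starvation, and 9.99, 10.06 and 10.01 untreated. In daf-2;daf-16 it had 6.49, 6.54 and 6.55 after UV, 5.83, 6.13, 5.76 and 5.52 in starvation, and 6.38, 6.48 and 6.43 untreated. No array of daf-2;daf-16 came near the lowest array of daf-2, which was a starved one. In daf-16 the signals were 7.05, 7.06 and 7.64 after UV, 5.86 and 5.94 in starvation, and 6.24, 6.23 and 6.37 untreated. In N2 they were 8.32, 8.62 and 8.74 after UV, 8.88, 8.82 and 8.84 in starvation, and 6.78, 6.40 and 6.63 untreated. Every UV array and every starved array of N2 lay above the untreated arrays of N2 and below all arrays of daf-2.

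Untreated daf-2 larvae had 10.7-fold more sip-1 signal than untreated N2 (3.42 ± 0.13, adjusted p = 2.8e-19, limma). The GAPDH 3' to 5' difference was also apart between these groups (0.29 to 0.55 in daf-2, against 0.73 to 0.91 in N2), and its part in the result was not tested. The actin difference overlapped between them (0.63 to 0.79 in daf-2, against 0.68 to 0.95 in N2). Against daf-2;daf-16 the difference was 3.56 ± 0.13 after UV, 3.65 ± 0.12 in starvation and 3.59 ± 0.13 untreated, each called. The second probe set gave 4.25 for untreated larvae, or 19.1-fold. The daf-2 arrays are shared by these comparisons, and UV and starved arrays of a strain are set against the same untreated arrays throughout. The excess of daf-2 over N2 was 1.52 ± 0.13 after UV and 0.61 ± 0.13 in starvation, where N2 itself was high. In starvation daf-16 was lower than N2 by 7.72-fold (-2.95 ± 0.15, adjusted p = 1.1e-15), and after UV by 2.47-fold (-1.31 ± 0.13, adjusted p = 3.1e-08). Untreated daf-16 and N2 did not pass the test (-0.32 ± 0.13, adjusted p = 0.367, 95% interval -0.59 to -0.06).

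UV raised sip-1 by 1.96 ± 0.13 in N2 (adjusted p = 2.2e-13) and by 0.98 ± 0.13 in daf-16 (adjusted p = 1.2e-06). The value in daf-16 was 0.78 ± 0.12 without replicate 3, the array that stood apart. Neuronal, pharyngeal and collagen markers moved in the same UV arrays of N2, as given above, and their part was not tested. UV gave 0.06 ± 0.13 in daf-2 (95% interval -0.20 to 0.33) and 0.10 ± 0.13 in daf-2;daf-16 (-0.17 to 0.36), neither of them called. The response of daf-16 was smaller than that of N2 (-0.98 ± 0.18, adjusted p = 6.3e-03), and so was the response of daf-2 (-1.89 ± 0.18, adjusted p = 5.7e-08). For daf-16 the second sip-1 probe set gave -0.81 ± 0.25 (adjusted p = 0.077), which was called as -1.07 without daf-16 UV replicate 3 (adjusted p = 3.77e-03) and as -0.97 without N2 UV replicate 1 (adjusted p = 0.0207). A fit of only the groups compared ended the call of the first probe set (adjusted p = 0.0998). After UV, daf-2;daf-16 was also below daf-16 (-0.73 ± 0.13, adjusted p = 1.4e-03), a call that the fit of only these groups did not make (adjusted p = 0.198).

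Starvation raised sip-1 in N2 by 2.24 ± 0.13, or 4.73-fold, and lowered its first probe set in the other 3 strains. The change was -0.56 ± 0.13 in daf-2, -0.62 ± 0.12 in daf-2;daf-16 and -0.38 ± 0.15 in daf-16. The fall in daf-16 was no longer called without starved replicate 1 (-0.34, adjusted p = 0.142), starved replicate 2 (-0.42, adjusted p = 0.069) or untreated replicate 3 (-0.34, adjusted p = 0.0855), and the second probe set did not call it (-0.24 ± 0.20). The starvation response differed from that of N2 by -2.80 ± 0.18 in daf-2 and by -2.62 ± 0.20 in daf-16. Those responses share the untreated and starved N2 arrays. Over the 12 group means both sip-1 probe sets had a correlation of 1.00. By the first, the groups ran from daf-2 after UV (10.08 ± 0.11, SD, n = 3) down to starved daf-2;daf-16 (5.81 ± 0.25, n = 4). In that order 3 pairs of neighbouring groups had overlapping arrays. They were daf-2 after UV and untreated daf-2, untreated N2 and daf-2;daf-16 after UV, and starved daf-16 and starved daf-2;daf-16. More neighbours overlapped by the second probe set. Among them were starved N2 and N2 after UV, and every neighbouring pair from untreated N2 down.

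**Figure D1:**
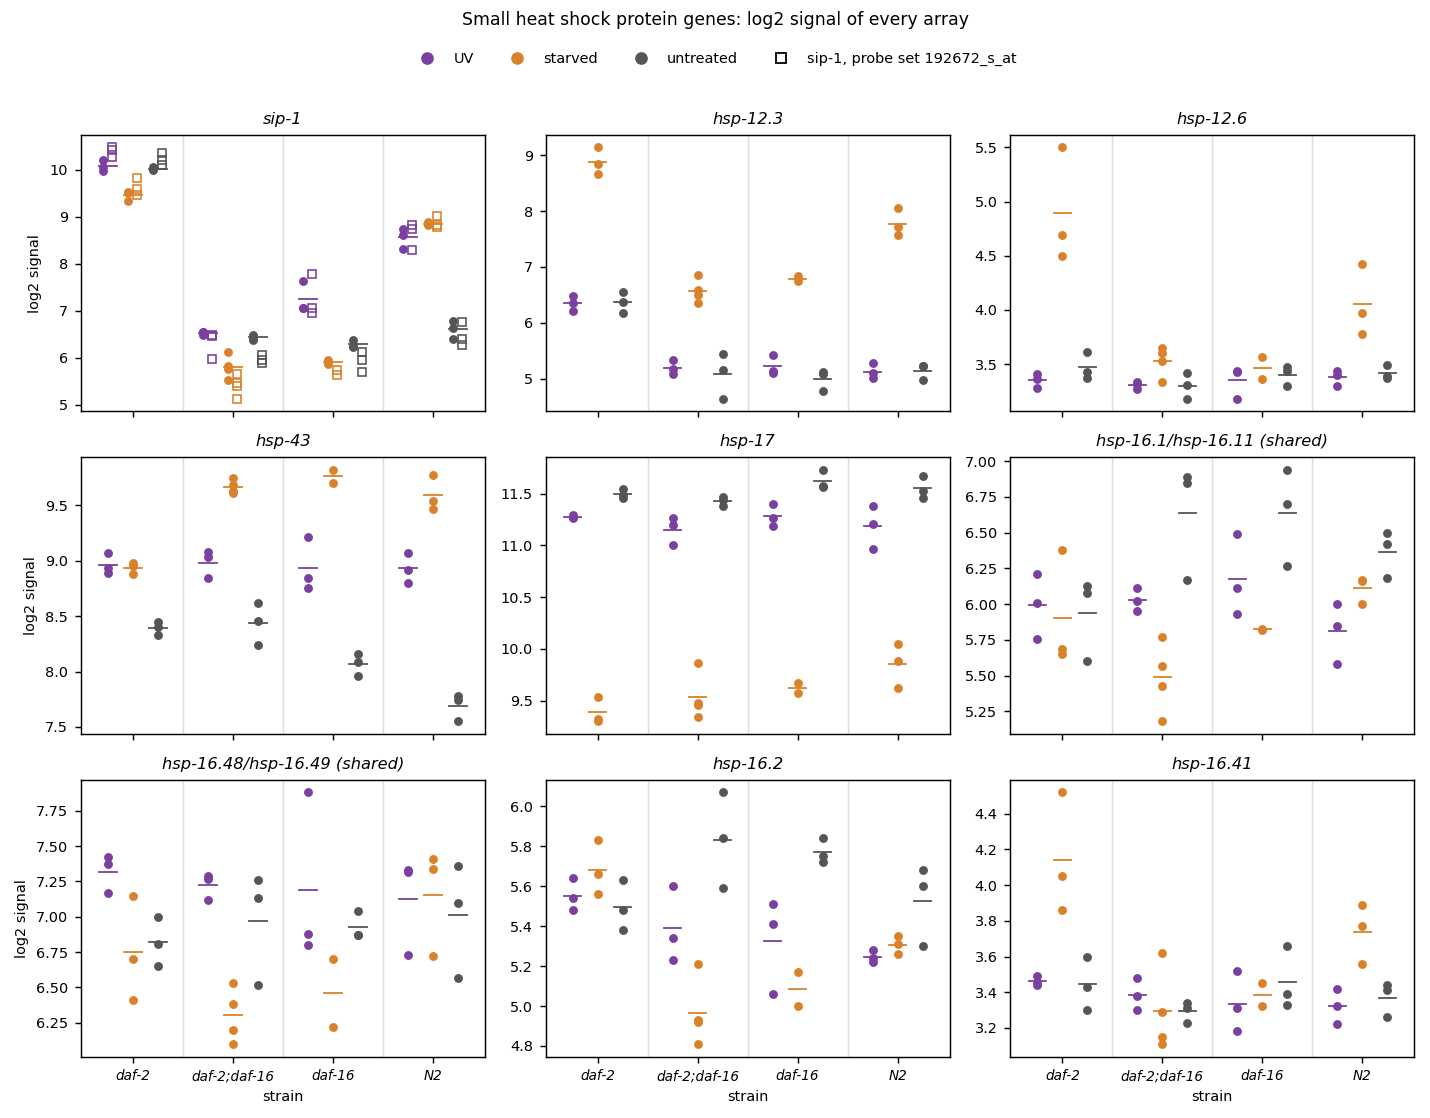
Log2 signal (y axis) of every array for each gene, with strains along the x axis and UV, starved and untreated arrays in 3 colours; short lines are group means, and open squares are the second sip-1 probe set. All daf-2 arrays of sip-1 lie above the N2 arrays, starved arrays of hsp-12.3 lie highest in each strain, and starved arrays of hsp-17 lie lowest in each strain.

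The 12-kDa members, hsp-12.3 and hsp-12.6, have short ends around the alpha-crystallin domain, and little chaperone activity was reported for this class in vitro. The gene hsp-12.3 was raised by starvation in all 4 strains, was higher in daf-2 under every treatment than in N2 or daf-2;daf-16, and had no called change after UV (-0.02 to 0.23 over the strains). In daf-2 its log2 signals were 6.21, 6.36 and 6.48 after UV, 8.85, 8.66 and 9.14 in starvation, and 6.38, 6.18 and 6.56 untreated. In daf-2;daf-16 they were 5.34, 5.18 and 5.08 after UV, 6.50, 6.58, 6.86 and 6.35 in starvation, and 5.45, 4.64 and 5.16 untreated. The UV and untreated arrays of both strains overlapped within the strain, while all starved arrays stood above them. In daf-16 the signals were 5.11, 5.14 and 5.43 after UV, 6.83 and 6.75 in starvation, and 4.79, 5.09 and 5.12 untreated. In N2 they were 5.10, 5.28 and 5.01 after UV, 7.71, 8.05 and 7.57 in starvation, and 5.23, 4.97 and 5.22 untreated.

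Starvation raised hsp-12.3 by 2.51 ± 0.16 in daf-2, 1.49 ± 0.15 in daf-2;daf-16, 1.79 ± 0.18 in daf-16 and 2.64 ± 0.16 in N2, which is 5.70-fold, 2.80-fold, 3.45-fold and 6.23-fold, all called. The rise in daf-2 exceeded that in daf-2;daf-16 by 1.03 ± 0.22 (adjusted p = 1.8e-03), or by 0.77 ± 0.22 without the 3 arrays that stood apart (adjusted p = 0.0124). Between daf-16 and N2 the difference in response, -0.85 ± 0.25, did not pass (adjusted p = 0.0505), with a 95% interval of -1.35 to -0.35. It was called, at -0.84 to -0.96, under array weights, quantile normalization, the filter on dim probe sets and the fit of only the groups compared, and without the 3 arrays, N2 starved replicate 3 or daf-16 untreated replicate 1. The levels in starvation differed between these strains (-0.99 ± 0.18, adjusted p = 3.3e-04). The excess of daf-2 over N2 was 1.22 ± 0.16 after UV, 1.11 ± 0.16 in starvation and 1.24 ± 0.16 untreated. Over daf-2;daf-16 it was 1.15 ± 0.16 after UV, 2.31 ± 0.15 in starvation and 1.29 ± 0.16 untreated.

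The neighbour of hsp-12.3, hsp-12.6, is a textbook target of DAF-16 and was named among the small heat shock protein genes needed for the full life span of daf-2 mutants. Its signal was low, and its probe set was among the dimmest 33.3% on the array (a mean log2 signal under 4.71). Untreated group means were 3.3 to 3.47, near the low end of the array's values, so the differences below are differences of signal, and as changes of RNA they may be understated. Its called rises were those of starved daf-2 and starved N2. Starved daf-2 arrays had 4.50, 4.69 and 5.50, against 3.43, 3.61 and 3.37 untreated. Starved N2 arrays had 3.78, 3.97 and 4.42, against 3.49, 3.39 and 3.37 untreated. The starved arrays did not overlap with the untreated ones in either strain, and the starved daf-2 arrays stood above those of N2. In starved daf-2;daf-16 the signals were 3.65, 3.34, 3.53 and 3.60, against 3.42, 3.31 and 3.18 untreated, and in starved daf-16 they were 3.36 and 3.57, against 3.44, 3.3 and 3.47 untreated. All 12 UV arrays lay between 3.18 and 3.44.

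Starvation changed hsp-12.6 by 1.43 ± 0.15 in daf-2 (adjusted p = 1.6e-09) and by 0.64 ± 0.15 in N2 (adjusted p = 5.8e-04). It gave 0.23 ± 0.14 in daf-2;daf-16 (95% interval -0.06 to 0.52) and 0.07 ± 0.17 in daf-16 (-0.28 to 0.41), which were not called. The response of daf-2 exceeded that of daf-2;daf-16 by 1.20 ± 0.21 (adjusted p = 1.3e-04) and that of N2 by 0.79 ± 0.22 (adjusted p = 0.0111). Without the 3 arrays that stood apart the excess over daf-2;daf-16 was 1.16. The excess over N2 was 0.48 without replicate 3 of starved daf-2 (adjusted p = 0.0529) and was not called in a fit of only these groups (adjusted p = 0.0506). In level, starved daf-2 was above starved daf-2;daf-16 by 1.37 ± 0.14 (adjusted p = 4.0e-09) and above starved N2 by 0.84 ± 0.15 (adjusted p = 2.4e-04). Starved daf-16 was below starved N2 (-0.59 ± 0.17, adjusted p = 0.0277). That call ended without starved daf-16 replicate 1 (-0.48, adjusted p = 0.292) or 2 (-0.69, adjusted p = 0.0701), without starved N2 replicate 3 (-0.41, adjusted p = 0.20) and in a fit of only these groups (adjusted p = 0.0563). The difference between the responses of daf-16 and N2 was not called (-0.57 ± 0.23, adjusted p = 0.227) except under array weights (-0.70, adjusted p = 0.0198).

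The hsp-16 genes are the members most used as reporters of heat stress. None of their 4 probe sets had a called rise after UV in any strain, and the called changes of hsp-16.2 and of the shared hsp-16.1 and hsp-16.11 probe set with treatment were falls. The shared hsp-16.48 and hsp-16.49 probe set gave 0.50 after UV in daf-2 (adjusted p = 0.14), which was called in a fit of only these groups (adjusted p = 0.00205). The hsp-16.2 arrays of starved daf-2;daf-16 had 4.93, 4.81, 4.92 and 5.21, against 5.59, 6.07 and 5.84 untreated, and starved daf-16 had 5.17 and 5.0, against 5.75, 5.84 and 5.72 untreated. Starved daf-2 arrays had 5.83, 5.56 and 5.66, against 5.63, 5.48 and 5.38 untreated, and starved N2 arrays had 5.31, 5.26 and 5.35, against 5.30, 5.60 and 5.68 untreated. Starved and untreated arrays were thus separate in both strains with the daf-16 mutation and overlapped in daf-2 and N2. In starvation hsp-16.2 fell by 0.87 ± 0.12 in daf-2;daf-16 (adjusted p = 1.6e-07) and by 0.68 ± 0.14 in daf-16 (adjusted p = 1.3e-04). The changes of 0.19 ± 0.13 in daf-2 and -0.22 ± 0.13 in N2 were not called, though the one in N2 was called without untreated N2 replicate 1 (-0.33, adjusted p = 0.0449). The response of daf-2 was above that of daf-2;daf-16 by 1.05 ± 0.18 (adjusted p = 7.0e-05), and starved daf-2 was above starved daf-2;daf-16 in level by 0.71 ± 0.12 (adjusted p = 2.2e-05). Without the 3 arrays that stood apart hsp-16.2 fell by 1.07 in starved daf-2;daf-16, and the difference in response was 1.26.

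The shared hsp-16.1 and hsp-16.11 probe set moved in the same way. It had 5.18, 5.43, 5.77 and 5.57 in starved daf-2;daf-16, against 6.17, 6.89 and 6.85 untreated (-1.15 ± 0.19, adjusted p = 2.9e-06). In starved daf-16 it had 5.83 and 5.82, against 6.94, 6.70 and 6.27 untreated (-0.82 ± 0.22, adjusted p = 2.5e-03). Here too the starved arrays lay below all untreated ones. Starved daf-2 gave -0.03 ± 0.20 and starved N2 -0.26 ± 0.20, neither called, and the response of daf-2 was above that of daf-2;daf-16 by 1.11 ± 0.27 (adjusted p = 5.3e-03). Without the 3 arrays these values were -1.41 in starved daf-2;daf-16 and 1.37 for the difference in response. The shared hsp-16.48 and hsp-16.49 probe set lay between 6.10 and 7.88 over all arrays and had 1 called change, -0.67 ± 0.22 in starved daf-2;daf-16 (adjusted p = 0.0109). Without untreated replicate 2 of that strain this was -0.53 (adjusted p = 0.0805), and without replicate 3 -0.59 (adjusted p = 0.0531), while without the 3 arrays it was -0.92.

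After UV, hsp-16.2 was lower in daf-2;daf-16 (-0.45 ± 0.13, adjusted p = 0.015) and in daf-16 (-0.44 ± 0.13, adjusted p = 0.0128). The shared hsp-16.1 and hsp-16.11 probe set was lower in daf-2;daf-16 (-0.61 ± 0.20, adjusted p = 0.0366) and in N2 (-0.56 ± 0.20, adjusted p = 0.0338). All 4 of these calls ended without 1 or more single arrays, and 3 of them, not the one in N2, in a fit of only the groups compared. For hsp-16.2 the value in daf-2;daf-16 was -0.33 without untreated replicate 2, -0.37 without UV replicate 1 and -0.42 without UV replicate 2, and that in daf-16 was -0.31 without UV replicate 2 and -0.41 without untreated replicate 2. For the shared probe set the value in daf-2;daf-16 was -0.48 to -0.65 without untreated replicate 2 or 3 or any UV replicate. In N2 it was -0.44 without UV replicate 3, -0.53 without untreated replicate 2 and -0.49 without untreated replicate 3. In untreated larvae the shared hsp-16.1 and hsp-16.11 probe set was lower in daf-2, against daf-2;daf-16 (-0.70 ± 0.20, adjusted p = 0.0173). That call ended without untreated daf-2 replicate 3 (-0.52, adjusted p = 0.15), untreated daf-2;daf-16 replicate 2 (-0.57, adjusted p = 0.122) or 3 (-0.59, adjusted p = 0.109), and in a fit of only these groups (adjusted p = 0.105).

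The gene hsp-16.41 is the neighbour of hsp-16.2, and over the 12 group means their correlation was 0.29. It was 0.96 between hsp-16.41 and hsp-12.6 and 0.79 between hsp-16.2 and the shared hsp-16.1 and hsp-16.11 probe set. Apart from starved daf-2 (4.15) and starved N2 (3.74), group means of hsp-16.41 lay at 3.29 to 3.46, near the low end of the array's values. A fall like that of hsp-16.2 could hardly have shown there. The 0.96 rests largely on starved daf-2 and starved N2, where hsp-12.6 had 4.90 and 4.06. These correlations describe group means of the same arrays and carry no test. The signal of hsp-16.41 was low, also among the dimmest 33.3% of probe sets, with the same limit on its differences as for hsp-12.6. Starved daf-2 arrays had 4.52, 4.05 and 3.86, against 3.60, 3.43 and 3.3 untreated, and starved N2 arrays had 3.77, 3.56 and 3.89, against 3.41, 3.26 and 3.44 untreated. The starved arrays lay above the untreated ones in both strains. Starved daf-2;daf-16 arrays had 3.15, 3.11, 3.62 and 3.29, against 3.23, 3.34 and 3.31 untreated, and starved daf-16 arrays 3.45 and 3.32, against 3.66, 3.33 and 3.39 untreated, so that starved and untreated arrays overlapped. The change in starvation was 0.70 ± 0.13 in daf-2 (adjusted p = 2.4e-05) and 0.37 ± 0.13 in N2 (adjusted p = 0.0146), and the response of daf-2 was above that of daf-2;daf-16 by 0.71 ± 0.18 (adjusted p = 5.9e-03). The starved levels of these strains differed by 0.85 ± 0.12 (daf-2 higher, adjusted p = 1.2e-06). Without the 3 arrays the difference in response was 0.74. The change in N2 was not called without starved replicate 3 (0.30, adjusted p = 0.0877) or untreated replicate 2 (0.32, adjusted p = 0.0696). The excess of starved daf-2 over starved N2 (0.41 ± 0.13, adjusted p = 0.0377) was not called without starved daf-2 replicate 1 (0.22, adjusted p = 0.29) or 2 (0.45, adjusted p = 0.0528). The same held without starved N2 replicate 1 (0.42, adjusted p = 0.0572) or 2 (0.32, adjusted p = 0.225), under array weights, under quantile normalization and in a fit of only these groups.

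**Figure D2:**
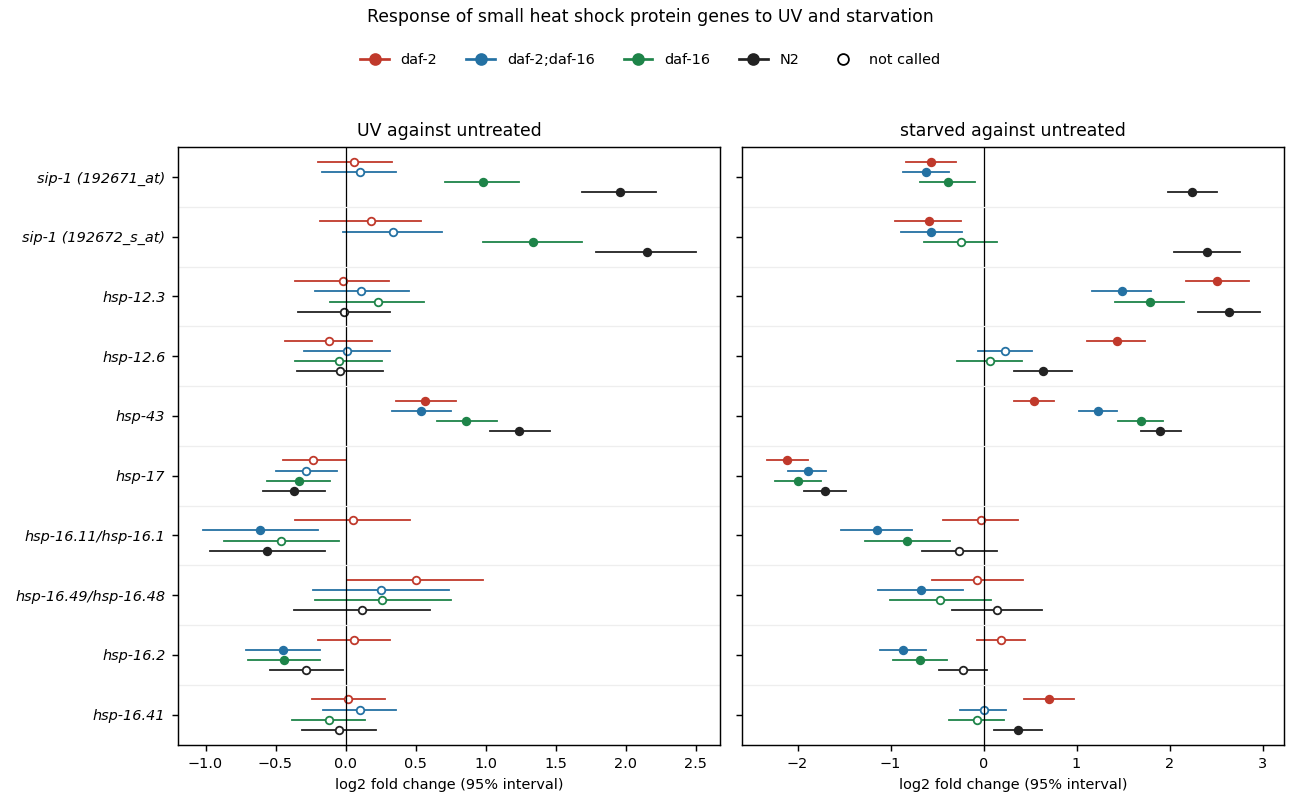
Log2 fold change of UV (left) and starved (right) against untreated larvae (x axis, with 95% intervals) for each probe set (y axis) in the 4 strains; filled points passed the test. In starvation the first sip-1 probe set rises in N2 (2.24) and falls in the other strains, while the second is not called in daf-16. The gene hsp-43 rises in all strains under both treatments, and hsp-17 falls in starvation by 1.70 to 2.11.

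The gene hsp-43 encodes a large member of the family, described from the vulva and spermatheca of adults. It rose in every strain after UV and in every strain in starvation. In daf-2 its log2 signals were 9.07, 8.89 and 8.93 after UV, 8.98, 8.88 and 8.95 in starvation, and 8.33, 8.40 and 8.45 untreated. In daf-2;daf-16 they were 9.08, 8.84 and 9.03 after UV, 9.75, 9.68, 9.63 and 9.61 in starvation, and 8.24, 8.62 and 8.46 untreated. UV and starved arrays overlapped in daf-2, while in daf-2;daf-16 the starved arrays stood above the UV arrays. In daf-16 the signals were 8.84, 8.75 and 9.21 after UV, 9.82 and 9.70 in starvation, and 7.96, 8.09 and 8.16 untreated. In N2 they were 8.80, 9.07 and 8.92 after UV, 9.77, 9.54 and 9.47 in starvation, and 7.78, 7.74 and 7.55 untreated.

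After UV the rise of hsp-43 was 0.57 ± 0.10 in daf-2, 0.54 ± 0.10 in daf-2;daf-16, 0.86 ± 0.10 in daf-16 and 1.24 ± 0.10 in N2, and the 4 UV group means lay between 8.93 and 8.98. The response was smaller in daf-2 than in N2 (-0.67 ± 0.15, adjusted p = 4.5e-03). It was not called as different between daf-16 and N2 (-0.38 ± 0.15, adjusted p = 0.168), but was so without daf-16 UV replicate 3 (-0.52, adjusted p = 0.0218). Untreated levels were higher in daf-2 than in N2 by 0.70 ± 0.10 (adjusted p = 4.4e-06) and did not pass for daf-2 against daf-2;daf-16 (-0.05 ± 0.10, 95% interval -0.26 to 0.16). In starvation the rise was 0.54 ± 0.10 in daf-2, 1.23 ± 0.10 in daf-2;daf-16, 1.69 ± 0.12 in daf-16 and 1.90 ± 0.10 in N2. It was smaller in daf-2 than in N2 (-1.36 ± 0.15, adjusted p = 6.8e-08) and also smaller than the rise of daf-2;daf-16 (-0.68 ± 0.14, adjusted p = 1.2e-03). Without the 3 arrays the rise in daf-2;daf-16 was 1.14 and this difference was -0.60. As for sip-1, the tissue markers moved in the same UV and starved arrays and their part was not tested. Starved daf-2 was the lowest of the starved groups, below daf-2;daf-16 by 1.66-fold (-0.74 ± 0.10, adjusted p = 4.8e-07) and below N2 by 1.58-fold (-0.66 ± 0.10, adjusted p = 3.9e-05).

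The protein of hsp-17 was reported to promote the aggregation of client proteins. Its transcript gave a strong signal in fed larvae and fell in starvation in every strain. The starved arrays of daf-2 had 9.54, 9.3 and 9.32, those of daf-2;daf-16 had 9.34, 9.48, 9.46 and 9.86, those of daf-16 had 9.57 and 9.67, and those of N2 had 10.05, 9.88 and 9.62. The 12 untreated arrays lay between 11.38 and 11.73, and the 12 UV arrays between 10.97 and 11.40. No starved array reached the lowest array of the other treatments. Starvation lowered hsp-17 by 2.11 ± 0.11 in daf-2, 1.89 ± 0.10 in daf-2;daf-16, 2.00 ± 0.12 in daf-16 and 1.70 ± 0.11 in N2, or 4.32-fold, 3.72-fold, 3.99-fold and 3.26-fold. Starved daf-2 was below starved N2 (-0.46 ± 0.11, adjusted p = 3.9e-03), while their responses were not called as different (-0.41 ± 0.15, adjusted p = 0.0714), except without starved daf-2 replicate 1 (-0.49), without starved N2 replicate 3 (-0.53), without the 3 arrays, under the replicate block and in a fit of only these groups. UV gave small falls, called in daf-16 (-0.33 ± 0.11, adjusted p = 0.0274) and N2 (-0.37 ± 0.11, adjusted p = 9.2e-03) and not in daf-2 (-0.23 ± 0.11) or daf-2;daf-16 (-0.28 ± 0.11). The call in daf-16 ended under array weights (-0.27), without UV replicate 1 (-0.32, adjusted p = 0.0693) or 3 (-0.29, adjusted p = 0.135) or untreated replicate 3 (-0.28, adjusted p = 0.132), and without the 3 arrays that stood apart (-0.29, adjusted p = 0.0626). The call in N2 without UV replicate 1 (-0.26, adjusted p = 0.0861) or untreated replicate 2 (-0.31, adjusted p = 0.0624).

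**Figure D3:**
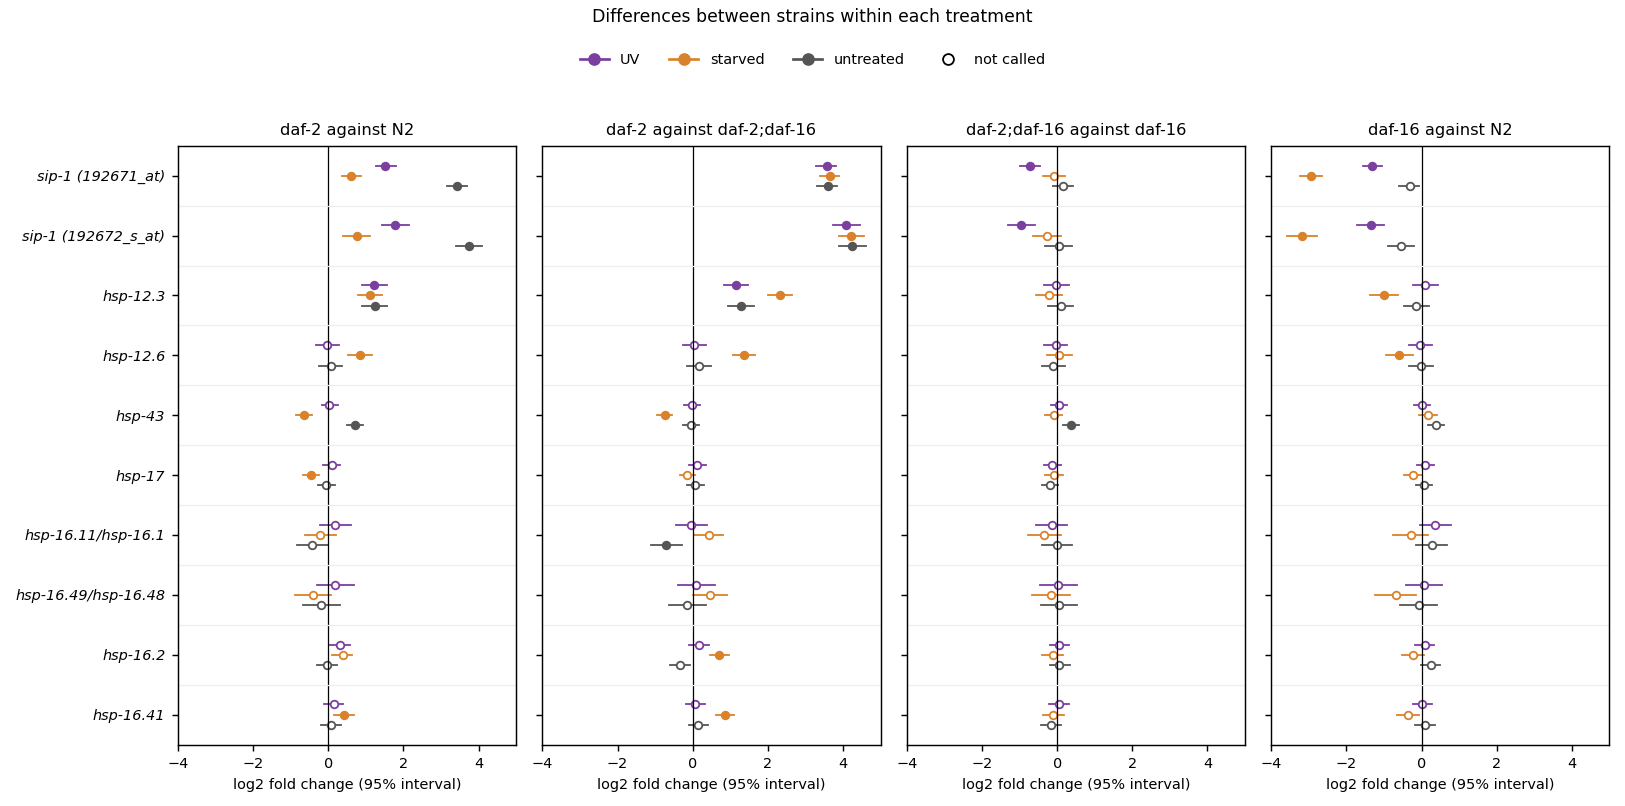
Log2 fold change between strains (x axis, with 95% intervals) for each probe set (y axis) in 4 comparisons, with the 3 treatments in colour; filled points passed the test. The sip-1 points of daf-2 against daf-2;daf-16 lie at 3.56 to 4.25, hsp-12.3 is higher in daf-2 in all 3 treatments, and no member passed between starved daf-2;daf-16 and starved daf-16.

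Counts of called member probe sets are set here beside the share of all tested probe sets called, as a description of 10 probe sets. In these counts, here and below, each probe set is a member, so sip-1 can count with both of its 2. After UV 1 of 10 was called in daf-2, where 25% of all tested probe sets were called, 3 in daf-2;daf-16 (14.6% of all), 5 in daf-16 (19%) and 5 in N2 (28.8%). In starvation 7 of 10 were called in daf-2 (43% of all), 8 in daf-2;daf-16 (54.5%), 6 in daf-16 (51.2%) and 7 in N2 (53.1%). The directions were mixed. In starved daf-2, 4 members were higher and 3 lower, against 23.3% and 19.7% of all probe sets. In starved daf-2;daf-16, 2 were higher and 6 lower, against 27.7% and 26.8%. In starved daf-16, 2 were higher and 4 lower, against 27% and 24.2%. In starved N2, 6 were higher and 1 lower, against 28.3% and 24.7%. The median change of the members in starvation was 0.08 in daf-2, -0.59 in daf-2;daf-16, -0.31 in daf-16 and 0.51 in N2. The median over all tested probe sets was 0.03 in daf-2, -0.05 in daf-2;daf-16, -0.04 in daf-16 and -0.03 in N2.

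Between strains, daf-2 against N2 gave 3 called members after UV (18.8% of all probe sets), 7 in starvation (10.2%) and 4 untreated (16.8%). Against daf-2;daf-16, daf-2 gave 3 after UV (13.6%), 7 in starvation (22.9%) and 4 untreated (11.6%). Comparisons of daf-2;daf-16 with daf-16 gave 2 after UV (3.48%), 0 in starvation (0.346%) and 1 untreated (9.14%), the last being hsp-43 (0.37 ± 0.10, adjusted p = 0.0197). That call ended under quantile normalization (0.33, adjusted p = 0.0747), in a fit of only these groups, and without daf-16 untreated replicate 1 (0.32), daf-2;daf-16 untreated replicate 2 (0.28) or 3 (0.36). In starvation 0 members also had an unadjusted p under 0.05 between these strains. For daf-16 against N2 there were 2 after UV (19.3%), 4 in starvation (7.75%), all lower in daf-16, and 0 untreated (1.43%). In the untreated comparison 3 had an unadjusted p under 0.05 in limma, the tool used throughout. The share of all probe sets at an unadjusted p under 0.05 was not counted, so no such count in this paragraph can be read as an excess. The shares of called probe sets move with single arrays. Leaving out 1 array gave 181 to 1307 calls over all probe sets for daf-2;daf-16 against daf-16 after UV (784 with all arrays), 0 to 117 in starvation (78) and 1022 to 3232 untreated (2062), and 1788 to 5670 for daf-16 against N2 after UV (4362). The treatment responses themselves differed for 1 member probe set between daf-16 and N2 after UV (1.85% of all) and 2 in starvation (3.00%), all of sip-1. They differed for 3 member probe sets between daf-2 and N2 after UV (4.66%) and 4 in starvation (14.8%). Both probe sets of sip-1 are among these 3 and among these 4. For daf-2 against daf-2;daf-16, 6 were called in starvation (12.8%) and 0 after UV (5.45%), with 2 at an unadjusted p under 0.05. Both of these were called without daf-2;daf-16 untreated replicate 1, hsp-16.2 at 0.63 and the shared hsp-16.1 and hsp-16.11 probe set at 0.89.

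Some relatives outside the 9 genes also changed in starvation. Of 7 further probe sets of alpha-crystallin genes, 4 rose and 2 fell in starved daf-2 (23.3% and 19.7% of all tested probe sets). In starved daf-2;daf-16, 3 rose and 1 fell (27.7% and 26.8% of all), as in starved daf-16 (27% and 24.2%). In starved N2, 4 rose and 1 fell (28.3% and 24.7%). These counts describe 7 probe sets and were not tested as a set. The neighbours hsp-16.20 and hsp-16.21 (F08H9.3 and F08H9.4) lie side by side on chromosome V. For hsp-16.20 the rise was 2.32 ± 0.16 in daf-2, 1.99 ± 0.15 in daf-2;daf-16, 2.11 ± 0.18 in daf-16 and 2.54 ± 0.16 in N2. A UV rise of hsp-16.20 was called in daf-2 (0.57 ± 0.16) and gave 0.28 ± 0.16 to 0.36 ± 0.16 in the others. Its untreated means were also low, at 3.80 to 4.05, so its differences may be understated. The probe set of hsp-16.21 was among the dimmest 33.3%, with untreated means of 3.59 to 3.73, so its differences may likewise be understated. Its starvation rise passed the test in daf-2 (1.43 ± 0.18, adjusted p = 3.6e-08) and not in the other strains (-0.16 ± 0.17 to 0.20 ± 0.18), and its response exceeded that of N2 by 1.23 ± 0.25 and that of daf-2;daf-16 by 1.59 ± 0.25. Arrays of hsp-16.21 lay between 4.70 and 5.84 in starved daf-2, against 3.60 to 3.95 in untreated daf-2. The 12-kDa gene hsp-12.2 rose in starvation in all strains (0.65 ± 0.07 to 1.07 ± 0.07) and hsp-12.1 fell (-0.84 ± 0.19 to -1.55 ± 0.21). Also ZK1128.7 rose, by 1.10 ± 0.11 to 1.59 ± 0.10.

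Of 6 probe sets for the heat shock factors and their regulators, 0 were called after UV in any strain by limma. Of all tested probe sets, 14.6% to 28.8% were called after UV over the 4 strains. In starvation 2 fell in every strain, and 1 rose in daf-16 and N2 and 0 in daf-2 and daf-2;daf-16. In starvation hsf-1, the heat shock factor, was called in daf-16 (0.38 ± 0.12) and N2 (0.27 ± 0.10). The HSF-1 binding protein gene hsb-1 fell by 0.42 ± 0.15 to 0.61 ± 0.16 and hsp-90 by 0.33 ± 0.07 to 0.46 ± 0.06 over the 4 strains. A list of 13 probe sets was of HSP70, HSP40 and HSP90 partners, which refold what small heat shock proteins hold. Of these, 8 fell and 1 rose in starved daf-2, and 10 fell and 1 rose in starved daf-2;daf-16. The counts were 8 and 1 in starved daf-16, and 10 and 1 in starved N2. Of all tested probe sets, 19.7% to 26.8% fell and 23.3% to 28.3% rose in starvation over the 4 strains. The constitutive HSP70 gene hsp-1 fell by 1.57 ± 0.15 in daf-2 and 1.52 ± 0.15 in N2, and the HSP110 gene hsp-110 by 1.14 ± 0.13 in daf-2 and 1.33 ± 0.13 in N2. The probe set shared by F44E5.4 and F44E5.5, heat-inducible HSP70 genes, was not called after UV in any strain and fell with starvation by 1.14 ± 0.24 in daf-2;daf-16, 1.24 ± 0.29 in daf-16 and 0.67 ± 0.26 in N2.

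**Figure D4:**
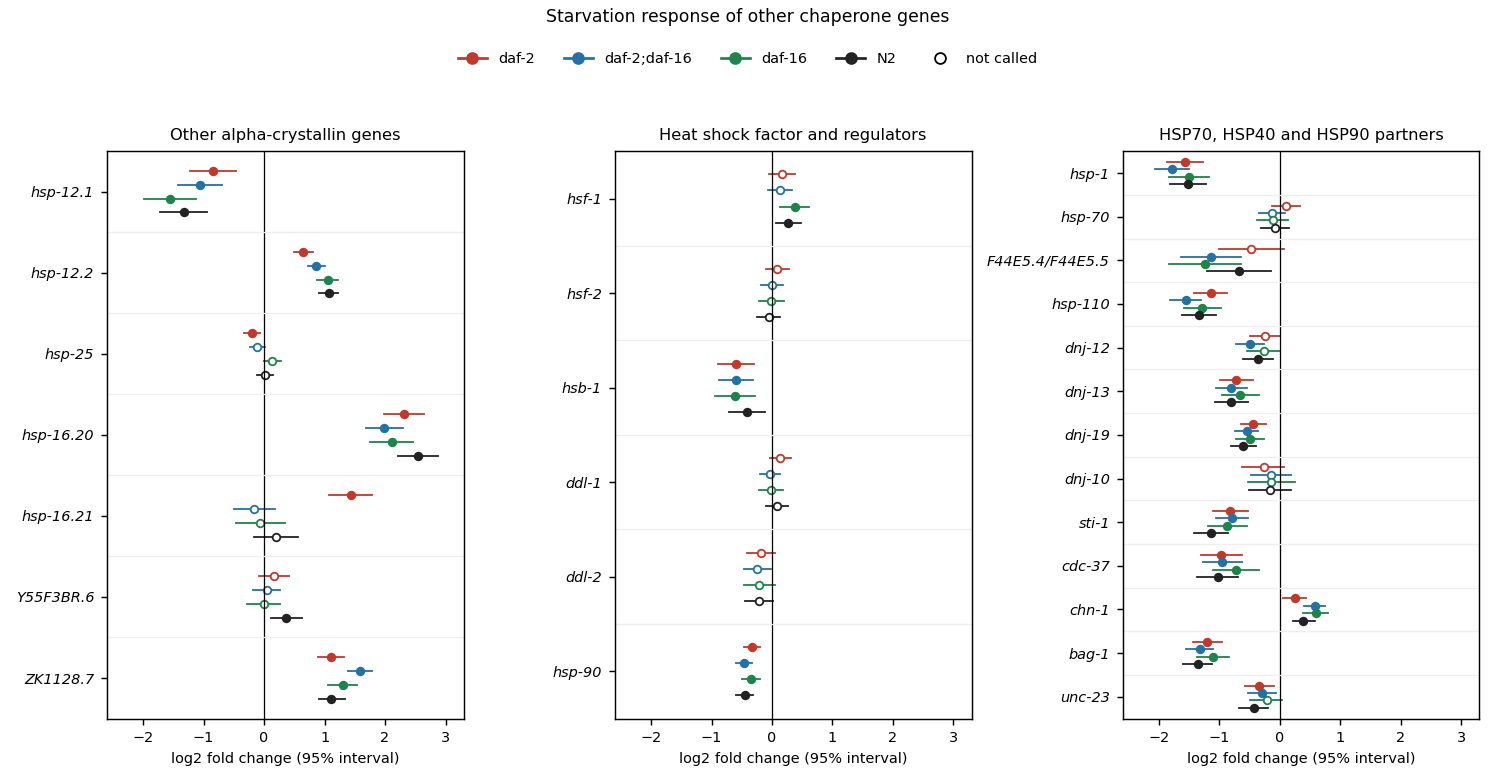
Log2 fold change of starved against untreated larvae (x axis, with 95% intervals) in the 4 strains for 7 further alpha-crystallin probe sets, 6 of heat shock factors and regulators and 13 of chaperone partners (y axes); filled points passed the test. The gene hsp-16.20 rises in every strain and hsp-16.21 in daf-2, at 1.43, while hsp-1, hsp-110 and bag-1 fall in every strain.

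A list of 10 textbook DAF-16 targets was measured beside the members. Of these, 8 were higher in untreated daf-2, against untreated N2 (16.8% of all tested probe sets called in either direction). Against daf-2;daf-16, 8 were higher in daf-2 in each treatment (11.6% to 22.9% of all called in either direction). In starved daf-16, 7 were lower than in starved N2 (7.75% of all called in either direction), with the superoxide dismutase gene sod-3 at -3.20 ± 0.14. The 3 genes whose 12 group means were most like those of sip-1 were gst-29 (Pearson correlation 0.954), sod-3 (0.953) and H04M03.3 (0.953). For hsp-12.3 they were lect-2 (0.987), DH11.2 (0.975) and ifc-1 (0.972). The cytochrome P450 gene cyp-33C2 was most like both hsp-12.6 (0.984) and hsp-16.41 (0.973). For hsp-12.6 F47B8.4 (0.944) and cyp-33D3 (0.942) followed, and for hsp-16.41 the superoxide dismutase gene sod-5 (0.952) and F40G12.5 (0.943). The nearest to hsp-43 were C44C10.9 (0.980), the molting peroxidase gene mlt-7 (0.976) and srap-1 (0.973). The molting list that holds mlt-7 mostly went the other way, falling in N2 after UV and in starved N2, where hsp-43 rose. The nearest to hsp-17 were ile-1, stt-3 and the proteasome subunit gene rpn-5, each at 0.990. For hsp-16.2 and for the shared hsp-16.1 and hsp-16.11 probe set T07E3.3 came first (0.933 and 0.917), and for the shared hsp-16.48 and hsp-16.49 probe set unc-112 (0.943). Each likeness is over 12 group means of the same arrays and was picked as the highest of many, so it is a description without a test.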

How the data were processed

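Biotin-labelled total RNA, extracted in Trizol, was hybridized to 1-colour Affymetrix arrays, per the labels' protocols. Affymetrix Power Tools was used by the authors to make the table, according to the submitters' processing notes, and its version and summary method are not stated there. The deposited values, from 2.63 to 14.9 for 22625 probe sets, are on a log2 scale, which was read from the values because no header names a unit. Array medians lay between 5.79 and 5.88, so the deposited values were used without further normalization. The 77 control probe sets were left out. Gene symbols came from the platform annotation, updated through the WBcel235 RefSeq table: of 22548 probe sets 20766 had 1 symbol, 887 several and 895 none.

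One limma 3.58.1 model (R 4.3.3) held all 12 groups with an intensity-dependent prior (24 residual degrees of freedom), and p-values were adjusted by Benjamini and Hochberg over all probe sets. An interaction is 1 strain's response minus that of another. The code was tested on simulated data. The members and lists were chosen with earlier results of these data known. Named are all members, genes of the lists of relatives, regulators, partners, DAF-16 targets, molting and tissue markers, and the 3 probe sets per member with the highest correlation of group means. A gene of a list is represented by its probe set with the highest mean signal. Replicate numbers were not taken to pair arrays. Alternatives were quantile normalization, leaving out the dimmest 33.3% of probe sets, array weights, the replicate number as a block, leaving out each array and a fit of only the groups compared. Leaving out the 3 arrays that stand apart was chosen after seeing the data.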

Additional observations from a re-analysis of the deposited data

Results flagged for a closer look

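A test of the difference between 2 strains' responses marked 16 of 60 such values. Of all tested probe sets, 1.85% to 14.8% were called over the same comparisons. These comparisons share arrays, and sip-1 counts with both of its 2 probe sets. After UV these were sip-1 in daf-16 against N2 (-0.98 by its first probe set), sip-1 in daf-2 against N2 (-1.89, and -1.97 by its second probe set) and hsp-43 in daf-2 against N2 (-0.67). In starvation sip-1 differed in daf-16 against N2 (-2.62 and -2.65 by its 2 probe sets) and in daf-2 against N2 (-2.80 and -3.0). In starved daf-2 against N2, hsp-12.6 (0.79) and hsp-43 (-1.36) differed as well. For starvation in daf-2 against daf-2;daf-16, hsp-16.41 (0.71), hsp-12.3 (1.03) and hsp-12.6 (1.20) rose more in daf-2, and hsp-43 rose less (-0.68). The differences of hsp-16.2 (1.05) and of the shared probe set of hsp-16.11 and hsp-16.1 (1.11) were also positive. These 2 probe sets fell in starved daf-2;daf-16 and had no called change in starved daf-2. In the 10 groups of 4 or more arrays, 1 for each member probe set in starved daf-2;daf-16, no array was far enough from the others to be marked.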

How the results depend on the processing

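Of 260 member values 95 were called, where 0.346% to 54.5% of all tested probe sets were called, depending on the comparison. Of these 95 calls, 78 held under every alternative that could be run. No called value changed sign, and 17 lost their call under at least 1 alternative. Of the 165 uncalled values 24 were called somewhere and 141 nowhere. The fit of only the groups compared lost 11 calls and gained 7, array weights lost 2 and gained 18, quantile normalization lost 2 and gained 1, and leaving out the 3 arrays lost 1 and gained 11. The filter on dim probe sets, which keeps 208 of the values, lost 0 and gained 2, and the replicate block lost 0. Array weights changed the count of called members to 2 for UV in daf-2, 5 for UV in daf-2;daf-16, 2 for untreated daf-16 against N2, 3 and 4 for the UV and starvation responses of daf-16 against N2, and 2 for the UV response of daf-2 against daf-2;daf-16. The fit of only the groups compared changed the first 3 of these to 3, 1 and 1, the response to UV of daf-16 against N2 to 0, and daf-2;daf-16 against daf-16 to 0 after UV and 0 untreated, the last also being 0 under quantile normalization. Without the 3 arrays the counts were 2 for untreated daf-16 against N2, 3 for the response to UV of daf-16 against N2 and 2 for that of daf-2 against daf-2;daf-16. Counts of calls over all probe sets also moved under these settings, as given below, and the member counts were not set against them. Of the counts that moved, the causes were not tested. Same-numbered arrays share only a number: over 57 pairs their deviations had correlations of -0.30 to 0.43, with 11 over 0.1, and the replicate block made 3 further calls, hsp-16.2 in starved daf-2 against N2 (0.38), hsp-17 after UV in daf-2;daf-16 (-0.28) and the hsp-17 starvation response of daf-2 against N2 (-0.41).

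Leaving out 1 array at a time gave 3 to 6 called members for UV in N2 (3 without untreated replicate 2) and 1 to 3 for UV in daf-2;daf-16 (1 without untreated replicate 2 or UV replicate 1 or 2). For untreated daf-2;daf-16 against daf-16 it gave 0 to 1 (0 without daf-16 replicate 1 or daf-2;daf-16 replicate 2 or 3). The response to UV of daf-16 against N2 had 1 to 3 (3 without daf-16 UV replicate 3, 2 without N2 UV replicate 1) and that of daf-2 against daf-2;daf-16 0 to 2 (2 without daf-2;daf-16 untreated replicate 1). Over all 22548 probe sets the same omissions gave 5239 to 7155 calls for UV in N2 and 2366 to 3363 for UV in daf-2;daf-16. They gave 1022 to 3232 for untreated daf-2;daf-16 against daf-16, and 865 to 1937 for the response to UV of daf-2 against daf-2;daf-16. Counts of calls over all probe sets moved by more than 1.5 times in 15 of 26 comparisons under array weights, 10 in a fit of only the groups compared, 8 without the 3 arrays, 1 under the replicate block (123, against 78, for starved daf-2;daf-16 against daf-16) and 0 under quantile normalization or the filter on dim probe sets. Leaving out 1 array gave 97 to 1493 such calls for the response to UV of daf-16 against N2 (417 with all arrays), 1788 to 5670 for daf-16 against N2 after UV (4362), and 181 to 1307 for daf-2;daf-16 against daf-16 after UV (784). As the widest cases, the count of calls for the response to UV of daf-16 against N2 was 2444 with array weights, 2173 without the 3 arrays and 38 in a fit of only the groups compared, against 417. For daf-16 against N2 after UV it was 333 in that fit, against 4362, and for daf-2;daf-16 against daf-16 after UV 9, against 784.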
